A study of Homo sapiens with 12 samples.

Results

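The transcripts examined here belong to the proteins that work with steroid receptors on chromatin: the pioneer factors FOXA1 and GATA2, the p160 coactivators NCOA1, NCOA2 and NCOA3, the coactivators TRIM24 and EP300, and the corepressor NCOR1. Members were taken as every probe that the platform annotation assigns to these 8 genes. The annotation used here names a probe for 6 of them, 10 probes in all out of 47323 (20046 genes), and NCOA3 and NCOR1 are not analysed here. All 10 probes passed the filter on detection (a detection p-value under 0.05 on at least 2 of the 12 arrays), as did 23133 probes in total.

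Pioneer factors bind their motifs in closed chromatin and open it for other regulators. Steroid receptors then recruit p160 coactivators, which act as platforms for acetyltransferases such as EP300 (p300), while corepressors such as NCOR1 bring histone deacetylases. SPOP holds the substrates of a CUL3 ubiquitin ligase, and the proteins of NCOA3 and TRIM24 are known as its substrates. The arrays measure RNA, so they show whether the transcripts of these proteins differ and say nothing of protein levels.

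The samples were LNCaP-Abl cells, an established prostate cancer line that was adapted from LNCaP to growth without androgen. All were grown in charcoal-stripped serum, which is low in steroid hormones, and carried a construct whose expression was induced with doxycycline. The constructs were a control vector (3 arrays), wild-type SPOP (3 arrays), or SPOP with a phenylalanine of its substrate-binding domain replaced, namely SPOP F102C, SPOP F133V and SPOP F133L (2 arrays each). The submitters call the replicates biological. The sources used here do not say whether they are separate lines or clones, and p-values refer only to the array-to-array spread. The comparisons asked what wild-type SPOP changes against the vector and what the mutants change against wild-type SPOP.

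Between 17485 and 19677 probes were detected per array, and the median intensity was 123 to 130 with control vector, 120 to 126 with wild-type SPOP and 109 to 123 with the mutants. SPOP F133V replicate 1 had the lowest median intensity and the fewest probes detected. SPOP RNA itself, read by ILMN_2397024, ranged from 9.90 to 10.27 in log2 level over the 12 arrays, control arrays included. The sources used here do not say whether that probe reads the constructs. Of 9 luminal prostate markers 8 were detected on every array and the remaining one, KLK3, on 10. The basal markers KRT5, KRT14 and KRT15 were detected on 0 arrays, as were 4 of 5 fibroblast markers. Summed luminal marker signal was 15700 to 16500 with control vector, 18500 to 18900 with wild-type SPOP and 16300 to 17800 with the mutants. Summed neuroendocrine marker signal was 312 to 354, 465 to 524 and 568 to 642. ENO2 was detected on all arrays, INSM1 on 5, and the defining markers CHGA and SYP on 0. Of 4 immune markers with a probe, CD68 was detected on all arrays, CD14 on 2, and the defining markers PTPRC and CD3E on 0. Summed immune marker signal was 238 to 244 with control vector, 211 to 261 with wild-type SPOP and 265 to 338 with the mutants. These 3 sums moved with the groups, and their part in the results below was not tested. In bulk RNA, more or fewer cells of a type and more or less RNA per cell cannot be told apart.

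NCOA1 and EP300 were the member genes with a probe past the threshold in at least 1 of the directed comparisons, and the windows around their annotated starts show what sequence surrounds them. RefSeq (GRCh38.p14) gives 3 starts for NCOA1, on the plus strand of chromosome 2, and 1 for EP300, on the plus strand of chromosome 22. Each window runs 5′ to 3′ from 250 bases before the start to 50 bases from it, and capitals mark matches on either strand to the GC box GGGCGG, the CCAAT box, the forkhead motif TGTTTAC, the GATA motif AGATAA and the steroid receptor hexamer AGAACA.
NCOA1 start 1 (chr2:24491004-24491303): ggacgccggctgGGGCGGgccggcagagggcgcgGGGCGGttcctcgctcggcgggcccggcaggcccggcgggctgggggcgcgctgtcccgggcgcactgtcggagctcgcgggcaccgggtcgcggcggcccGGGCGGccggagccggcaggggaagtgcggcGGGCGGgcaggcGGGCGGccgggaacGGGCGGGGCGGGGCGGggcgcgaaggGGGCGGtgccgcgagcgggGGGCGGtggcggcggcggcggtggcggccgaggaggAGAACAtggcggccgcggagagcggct
NCOA1 start 2 (chr2:24491627-24491926): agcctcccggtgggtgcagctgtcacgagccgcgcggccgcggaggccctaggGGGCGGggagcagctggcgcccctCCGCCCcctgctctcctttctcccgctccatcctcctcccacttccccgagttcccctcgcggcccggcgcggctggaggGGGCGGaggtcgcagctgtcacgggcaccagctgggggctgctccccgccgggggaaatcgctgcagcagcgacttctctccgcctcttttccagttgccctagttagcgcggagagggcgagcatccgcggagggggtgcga
NCOA1 start 3 (chr2:24584227-24584526): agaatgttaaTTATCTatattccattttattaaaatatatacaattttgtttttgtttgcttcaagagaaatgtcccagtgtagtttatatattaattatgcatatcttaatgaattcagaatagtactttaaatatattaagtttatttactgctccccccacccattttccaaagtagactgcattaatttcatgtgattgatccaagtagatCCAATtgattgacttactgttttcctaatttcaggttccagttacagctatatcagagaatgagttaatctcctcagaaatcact
EP300 (chr22:41092342-41092641): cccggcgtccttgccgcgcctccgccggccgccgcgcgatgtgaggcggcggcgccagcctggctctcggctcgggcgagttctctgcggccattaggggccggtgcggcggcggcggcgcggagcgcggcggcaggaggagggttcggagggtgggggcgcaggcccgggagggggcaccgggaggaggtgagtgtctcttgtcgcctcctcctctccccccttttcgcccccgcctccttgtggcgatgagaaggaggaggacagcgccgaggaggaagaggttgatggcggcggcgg
The first NCOA1 window had a GC content of 85.7% and 10 GC box matches, some of which overlap each other. The second window had 73.0% and 3 matches. NCOA1 window 3 had 28.7% and 0 GC boxes, and held 1 CCAAT box and 1 GATA match. A hexamer match began at base 24 of the first NCOA1 transcript. The EP300 window had a GC content of 75.3% and held none of the 5 motifs. Among all 35116 windows of this length, 45% held the GC box, 34.6% the CCAAT box, 14.8% the receptor hexamer, 10.3% the GATA motif and 3.42% the forkhead motif, and a match is a description of these letters, not of binding. The files do not tell which start is used in these cells.

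Levels below are log2 values after background correction and quantile normalization, differences are on that log2 scale, and each probe is compared only with itself across arrays. A probe was called at a Benjamini-Hochberg adjusted p under 0.05 in limma's test over all 23133 probes. Intervals are 95% intervals of the difference.

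**Figure D1:**
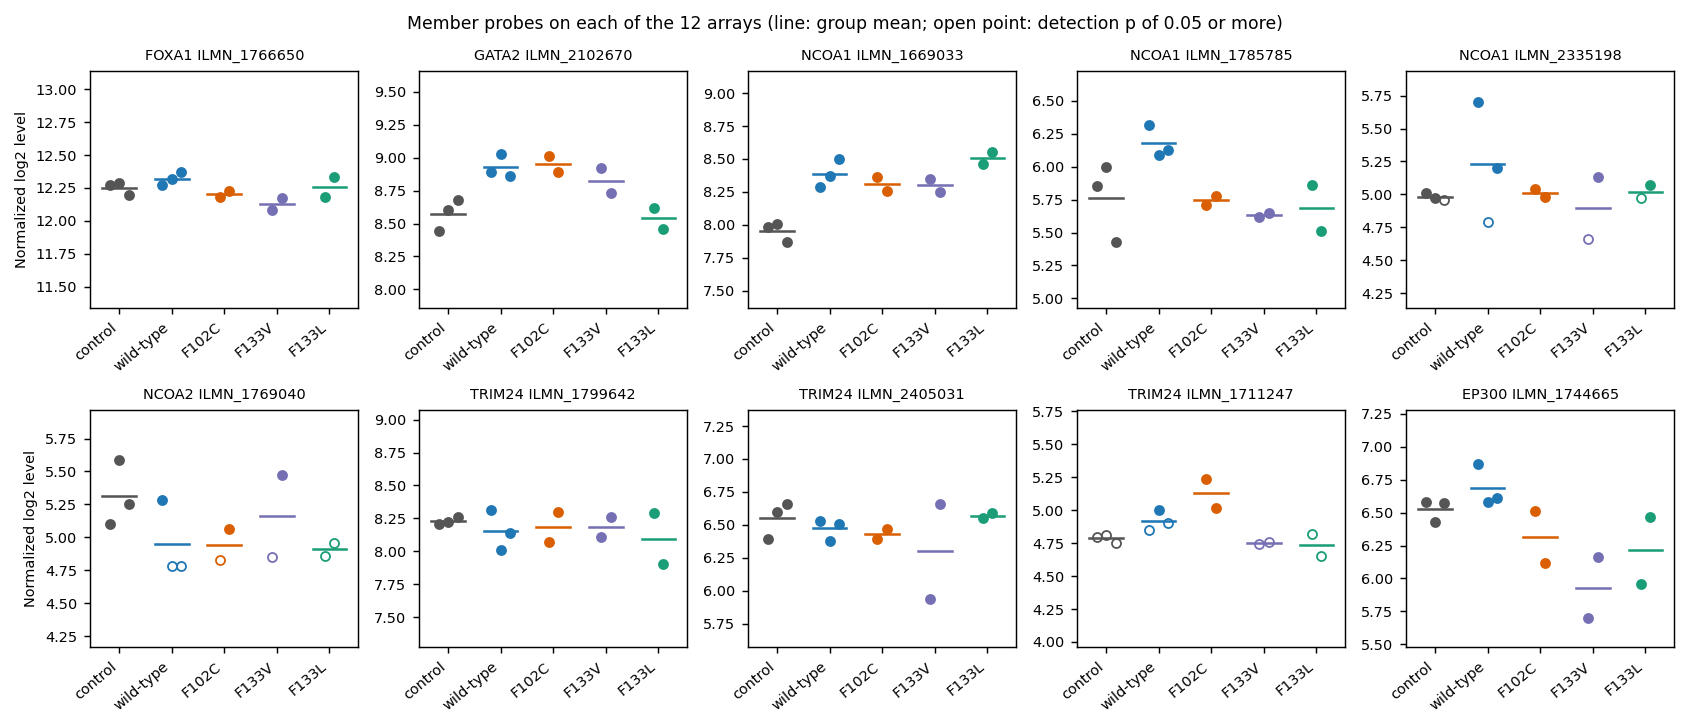
Normalized log2 level of each member probe (y axis, the same span in every panel) on the 12 arrays, grouped by construct (x axis). Points are arrays, lines are group means and open points were not detected. The 3 control arrays of NCOA1 ILMN_1669033 lie at 7.87 to 8.01, under the 9 arrays with a SPOP construct, and FOXA1 stays between 12.08 and 12.37.

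Wild-type SPOP arrays had more signal than control vector arrays at 1 of 3 NCOA1 probes, by 1.35-fold. The FOXA1 and TRIM24 transcripts differed by small amounts whose intervals included 0. NCOA1 was the member gene called in that comparison. Its other probes differed by 0.42 (adjusted p = 0.169) and 0.25 (0.576) on the log2 scale and were not called. In the mutants against wild-type SPOP, the NCOA1 probe called above differed by -0.02 on the log2 scale, and another NCOA1 probe was 1.41-fold lower. EP300, the p300 acetyltransferase, was lower with SPOP F133V than with wild-type SPOP, by 1.69-fold. SPOP F102C and SPOP F133L differed in the same direction without a call, by -0.37 and -0.47 on the log2 scale. The mutants were not shown to differ from each other at EP300. The calls behind these fold values were each lost without certain single arrays, and the sizes depended on the processing, as given below. With the authors' processed values the EP300 difference of SPOP F133V was -0.21 on the log2 scale.

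In counts, 1 of the 10 member probes was called in wild-type SPOP against control vector, where 3.22% of all probes were called. In the mutants against wild-type SPOP 1 of 10 was called, against 7.01% of all probes, and in the mutants against control vector 1 of 10, against 7.54%. With 10 probes, 1 call is close to these background shares and is no result about the group. The median difference of the 10 probes was 0.14, -0.08 and -0.07 in these comparisons, beside 0.00, -0.01 and -0.01 over all probes. The mutants share their control and wild-type SPOP arrays with the other comparisons, so the 3 sets of values are not independent.

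**Figure D2:**
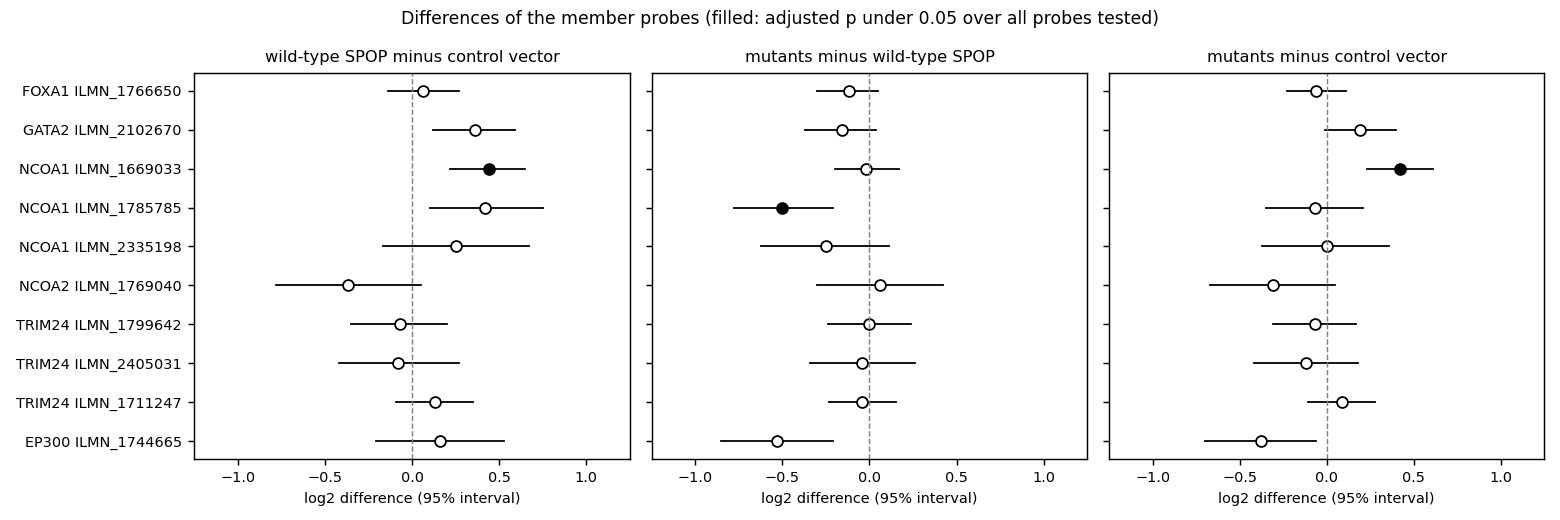
Difference in log2 level (x axis) of each member probe (y axis) in the 3 main comparisons, with 95% intervals from the limma fit. Filled points were called over all 23133 probes. There is 1 filled point in each panel: NCOA1 ILMN_1669033 at 0.44, NCOA1 ILMN_1785785 at -0.50 and NCOA1 ILMN_1669033 at 0.42.

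Among the pioneer factors, FOXA1, a forkhead factor that opens receptor binding sites in luminal prostate cells, was measured by probe ILMN_1766650. Its log2 level was 12.27, 12.29 and 12.20 on the control arrays and 12.27, 12.32 and 12.37 on the wild-type SPOP arrays. It was 12.18 and 12.23 with SPOP F102C, 12.08 and 12.17 with SPOP F133V, and 12.18 and 12.33 with SPOP F133L. Both SPOP F133V arrays lay below the other 10, and the other groups overlapped with their neighbours in the order of means. The spread between arrays of a group was small, with a residual SD of 0.06, where the median over all probes tested was 0.17.

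The FOXA1 difference was 0.06 ± 0.09 (SE) for wild-type SPOP against control vector, with an interval of -0.14 to 0.27. It was -0.12 ± 0.08 for the mutants against wild-type SPOP (-0.30 to 0.05) and -0.06 ± 0.08 for the mutants against control vector (-0.23 to 0.11). The adjusted p-values were 0.794, 0.393 and 0.725. Differences inside those intervals could not be resolved with these arrays. Before normalization the FOXA1 intensity was 5860 to 6620 on the control arrays, 5270 to 5590 with wild-type SPOP and 2520 to 5030 with the mutants. When the arrays were scaled to equal medians of all probes, the mutants differed from control vector by -0.48 (adjusted p = 0.0084). Relative to the median of all probes that difference was -0.17. The FOXA1 differences above are therefore relative to the other probes of the same arrays.

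GATA2, a zinc finger factor that binds beside FOXA1 and steroid receptors in prostate cells, was measured by probe ILMN_2102670. The control arrays gave 8.44, 8.60 and 8.68 and the wild-type SPOP arrays 8.89, 9.03 and 8.86. SPOP F102C gave 9.01 and 8.89, SPOP F133V 8.92 and 8.73, and SPOP F133L 8.62 and 8.46. All wild-type SPOP, SPOP F102C and SPOP F133V arrays lay above the control arrays, and both SPOP F133L arrays lay within the range of the control arrays.

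GATA2 stood higher with wild-type SPOP than with control vector by 0.36 ± 0.11 (SE; interval 0.12 to 0.59; adjusted p = 0.11), which did not pass the threshold. It passed in 4 of 13 other processing settings. These were the authors' processed values (adjusted p = 0.0168), quantile normalization alone (0.0137), an offset of 50 (0.0348) and an intensity trend (0.0239). Among those where it did not pass were equal medians of all probes (0.23; 0.526), the number of detected probes as a covariate (0.29; 0.345) and the replicate block (0.36; 0.177). It also did not pass without any 1 control or wild-type SPOP array (adjusted p from 0.126 to 0.293). The mutants differed from wild-type SPOP by -0.16 ± 0.09 (adjusted p = 0.343) and from control vector by 0.19 ± 0.09 (adjusted p = 0.249). SPOP F133L alone differed from wild-type SPOP by -0.39 ± 0.12 (adjusted p = 0.0998), SPOP F133V by -0.11 ± 0.12 (0.651) and SPOP F102C by 0.02 ± 0.12 (0.97). The test of a difference among the 3 mutants gave an adjusted p of 0.384 (unadjusted 0.0271), so GATA2 was not shown to differ between them.

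NCOA1 (SRC-1), the founding member of the p160 coactivators, had 3 probes. The brightest, ILMN_1669033, gave log2 levels of 7.98, 8.01 and 7.87 on the control arrays and 8.29, 8.37 and 8.50 on the wild-type SPOP arrays. It gave 8.36 and 8.26 with SPOP F102C, 8.35 and 8.25 with SPOP F133V, and 8.46 and 8.55 with SPOP F133L. All 9 arrays with a SPOP construct lay above all 3 control arrays, and the 4 SPOP groups overlapped with their neighbours in the order of means.

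NCOA1 rose at this probe with wild-type SPOP against control vector, by 0.44 ± 0.10 (SE, n = 3 and 3; interval 0.22 to 0.65), a 1.35-fold difference with an adjusted p of 0.0351. With the authors' processed values the difference was 0.26 (adjusted p = 0.0032). The call was lost without control vector replicate 1, 2 or 3 (differences of 0.45, 0.46 and 0.39; adjusted p = 0.0887, 0.0802 and 0.11). It was lost without wild-type SPOP replicate 1, 2 or 3 (0.48, 0.44 and 0.38; adjusted p = 0.0591, 0.0995 and 0.142) and without SPOP F102C replicate 1 or 2 (0.44 in both; adjusted p = 0.052). The direction held in each of these fits.

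The mutants lay 0.42 ± 0.09 above control vector at this probe (SE; interval 0.23 to 0.61), 1.34-fold with an adjusted p of 0.0123 (0.25 with the authors' values), a rise that turned to -0.06 (adjusted p = 0.75) when the arrays were scaled to equal medians of all probes. That scaling moved the median of all probes by -0.31, and relative to that median the difference was 0.25. Before normalization the intensity was 394 to 441 on the control arrays, 441 to 491 with wild-type SPOP and 261 to 433 with the mutants. The rise over the vector in the mutants is therefore one relative to the other probes of the same arrays. Without control vector replicate 3 it was 0.38 (adjusted p = 0.0649). The mutants differed from wild-type SPOP by -0.02 ± 0.09 (interval -0.20 to 0.17; adjusted p = 0.939).

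The F test over the 5 groups called NCOA1 ILMN_1669033 (adjusted p = 0.0403), 1 of 10 member probes, where 7.52% of all probes were called. The call remained without SPOP F133V replicate 2 (adjusted p = 0.0476) and was lost without any other single array (adjusted p from 0.0596 to 0.128).

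The second NCOA1 probe, ILMN_1785785, is annotated to the same RefSeq transcript and showed another order of groups. Its log2 level was 5.85, 6.0 and 5.43 with control vector and 6.32, 6.09 and 6.13 with wild-type SPOP. It was 5.71 and 5.78 with SPOP F102C, 5.62 and 5.65 with SPOP F133V, and 5.86 and 5.51 with SPOP F133L. The wild-type SPOP arrays were the highest and overlapped no other group, and the mutants lay among the control arrays. This probe was dim, though detected on every array. Its intensity was 167 to 195 with wild-type SPOP and 122 to 155 with the mutants, where array medians were 120 to 126 and 109 to 123.

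NCOA1 fell at ILMN_1785785 in the mutants against wild-type SPOP, by -0.50 ± 0.13 (SE, n = 6 and 3; interval -0.78 to -0.21), 1.41-fold lower with an adjusted p of 0.0406. The size depended on the processing, at -0.12 with the authors' processed values (adjusted p = 0.0498), -0.19 with quantile normalization alone (0.0373), -0.32 with an offset of 50 (0.0163) and -0.73 with equal medians of all probes (0.000558). Wild-type SPOP differed from control vector by 0.42 ± 0.15 (adjusted p = 0.169) and the mutants from control vector by -0.07 ± 0.13 (adjusted p = 0.804). The call was lost without wild-type SPOP replicate 1 (-0.43; adjusted p = 0.179), replicate 2 (-0.54; 0.089) or replicate 3 (-0.52; 0.103). It was also lost without control vector replicate 1 (-0.50; 0.0545), SPOP F102C replicate 1 (-0.48; 0.0812) or 2 (-0.51; 0.0677), SPOP F133V replicate 1 (-0.49; 0.0667) or 2 (-0.50; 0.0535), and SPOP F133L replicate 2 (-0.44; 0.0764).

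Both NCOA1 probes were higher with wild-type SPOP than with control vector on every array, by nearly the same amount (0.44 and 0.42), and they parted in the mutants. The log2 value of ILMN_1669033 minus that of ILMN_1785785 was 2.01 to 2.44 on the control arrays, 1.97 to 2.37 on the wild-type SPOP arrays and 2.48 to 3.04 on the 6 mutant arrays. This pattern was noticed in the data, is a description and carries no test.

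The remaining NCOA1 probe, ILMN_2335198, is annotated to another NCOA1 transcript and was detected on 8 of 12 arrays. Its log2 level ran from 4.66 to 5.70, close to background. The differences were 0.25 ± 0.19 for wild-type SPOP against control vector (adjusted p = 0.576), -0.25 ± 0.17 for the mutants against wild-type SPOP (0.406) and 0.00 ± 0.17 for the mutants against control vector (0.997). These 3 NCOA1 probes therefore do not give 1 answer for the mutants.

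**Figure D3:**
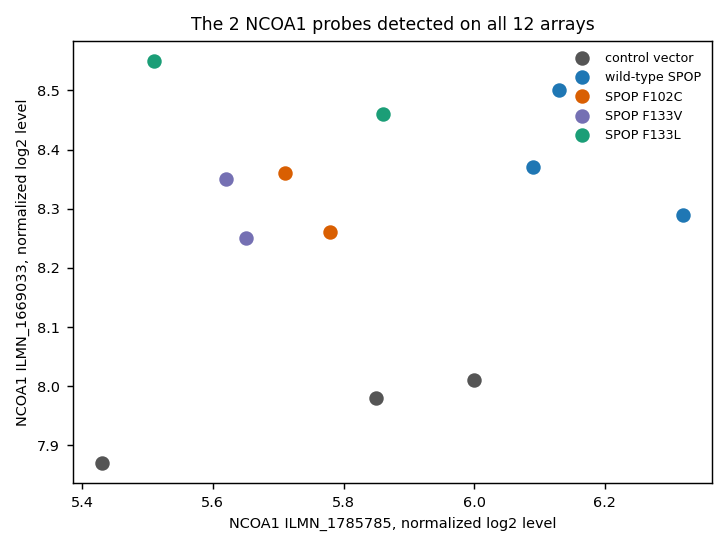
Log2 levels of the NCOA1 probes ILMN_1785785 (x axis) and ILMN_1669033 (y axis), detected on every array, with 1 point per array coloured by construct. The control arrays lie lowest on the y axis at 7.87 to 8.01, the wild-type SPOP arrays lie furthest right at 6.09 to 6.32, and the 6 mutant arrays lie at 5.51 to 5.86 on the x axis and 8.25 to 8.55 on the y axis.

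Among all kept probes of other genes, those that followed NCOA1 ILMN_1669033 most closely over the 12 arrays belonged to 3 genes. They were CCDC92 (Pearson r = 0.973), the quinone reductase NQO2 (0.937) and the zinc finger factor TSHZ3 (0.936). These are descriptions over 12 arrays that share their groups and normalization. CCDC92 averaged 6.47 with control vector, 7.02 with wild-type SPOP and 6.82 to 7.17 in the mutant groups. NQO2 averaged 7.90, 8.49 and 8.40 to 8.57, and TSHZ3 5.11, 5.97 and 5.94 to 6.19.

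NCOA2 (TIF2), the second p160 coactivator, was close to background at its probe ILMN_1769040, which was detected on 3 of 3 control arrays, 1 of 3 wild-type SPOP arrays and 2 of 6 mutant arrays. The control arrays gave 5.10, 5.59 and 5.25 and the wild-type SPOP arrays 5.28, 4.78 and 4.78. The mutants ranged from 4.83 to 5.47, and all groups overlapped with their neighbours in the order of means. The differences were -0.37 ± 0.19 for wild-type SPOP against control vector (interval -0.78 to 0.05; adjusted p = 0.372), 0.06 ± 0.17 for the mutants against wild-type SPOP (0.88) and -0.31 ± 0.17 for the mutants against control vector (0.308). At this signal a difference of that size could not be told from the spread between arrays.

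TRIM24, a bromodomain coactivator whose protein SPOP binds, is a known SPOP substrate among the genes measured. Its brightest probe, ILMN_1799642, gave 8.21, 8.22 and 8.26 with control vector and 8.31, 8.01 and 8.14 with wild-type SPOP. It gave 8.07 and 8.30 with SPOP F102C, 8.11 and 8.26 with SPOP F133V, and 8.29 and 7.90 with SPOP F133L. Every pair of neighbouring groups overlapped.

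The TRIM24 differences at this probe were -0.07 ± 0.13 for wild-type SPOP against control vector (interval -0.35 to 0.20; adjusted p = 0.843), 0.00 ± 0.11 for the mutants against wild-type SPOP (-0.24 to 0.24; 0.997) and -0.07 ± 0.11 for the mutants against control vector (-0.31 to 0.17; 0.762). A second probe annotated to another TRIM24 transcript, ILMN_2405031, gave -0.08 ± 0.16, -0.04 ± 0.14 and -0.12 ± 0.14 (adjusted p = 0.866, 0.901 and 0.67). Its lowest level, 5.94, was on the dimmest array, SPOP F133V replicate 1, and the other 11 arrays lay between 6.38 and 6.66. With equal medians of all probes the mutants differed from control vector by -0.55 at ILMN_1799642 (adjusted p = 0.00418) and -0.50 at ILMN_2405031 (0.00982). Relative to the median of all probes these differences were -0.24 and -0.19. Before normalization the intensity of ILMN_1799642 was 447 to 499 on the control arrays and 236 to 423 with the mutants.

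The TRIM24 probe ILMN_1711247 was detected on 3 of 12 arrays, namely both SPOP F102C arrays (5.24 and 5.02) and wild-type SPOP replicate 2 (5.0). It was not above background on any control, SPOP F133V or SPOP F133L array. The probe passed the filter on detection only through the SPOP F102C arrays, the group where it was highest. A test among the mutants at this probe follows that selection, and no conclusion is drawn from it. The unadjusted p for a difference among the 3 mutants was 0.0122 (adjusted p = 0.316), and 0 of 10 member probes were called in that test (2 at an unadjusted p under 0.05). Over all probes limma called 0 among the mutants (0%), with 2581 of 23133 at an unadjusted p under 0.05.

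EP300, the p300 acetyltransferase that p160 coactivators recruit, had 1 probe, ILMN_1744665, detected on every array. Its log2 level was 6.58, 6.43 and 6.57 with control vector and 6.87, 6.58 and 6.61 with wild-type SPOP. It was 6.51 and 6.12 with SPOP F102C, 5.70 and 6.16 with SPOP F133V, and 5.96 and 6.47 with SPOP F133L. All 6 mutant arrays lay below all 3 wild-type SPOP arrays, and the mutants and the control arrays overlapped. With the mutants this probe was dim. Before normalization its intensity was 197 to 228 with control vector, 195 to 238 with wild-type SPOP and 123 to 179 with the mutants. The array medians were 123 to 130, 120 to 126 and 109 to 123.

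The mutants differed from wild-type SPOP at EP300 by -0.53 ± 0.15 (SE; interval -0.85 to -0.21), with an adjusted p of 0.0506, just outside the threshold. In 9 of 13 other processing settings it was called, with adjusted p from 0.000244 to 0.176 over the 13. The difference was negative in all of them and ran from -0.16 with the authors' processed values to -0.81 with equal medians of all probes. Without 1 array in turn the difference ran from -0.62 to -0.44. It was not called without wild-type SPOP replicate 1 (-0.44; adjusted p = 0.213), 2 (-0.59; 0.1) or 3 (-0.57; 0.11). Nor was it called without control vector replicate 1, 2 or 3 (-0.53 in each; 0.0688, 0.0675 and 0.0688). It was -0.60, -0.61 and -0.62 without SPOP F102C replicate 1, SPOP F133V replicate 2 or SPOP F133L replicate 2. Without the other array of each of these mutants it was -0.47, -0.45 and -0.45. Wild-type SPOP differed from control vector by 0.16 ± 0.17 (adjusted p = 0.716) and the mutants from control vector by -0.38 ± 0.15 (adjusted p = 0.149).

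With the mutants taken singly, EP300 fell with SPOP F133V against wild-type SPOP, by -0.76 ± 0.19 (SE, n = 2 and 3; interval -1.17 to -0.34), 1.69-fold with an adjusted p of 0.0435. It was -0.21 with the authors' processed values (adjusted p = 0.0347), -0.33 with quantile normalization alone (0.0125), -0.52 with an offset of 50 (0.01) and -1.17 with equal medians of all probes (4.46e-05). This was 1 of 10 member probes, where 4.99% of all probes were called. SPOP F102C differed by -0.37 ± 0.19 (adjusted p = 0.39) and SPOP F133L by -0.47 ± 0.19 (0.201). In the SPOP F102C comparison limma called 0 of 10 member probes (1 at an unadjusted p under 0.05), where 1.57% of all probes were called. In that of SPOP F133L it called 0 of 10 (3 unadjusted), where 3.57% were called. The mutants were not shown to differ from each other (adjusted p = 0.635). The lowest EP300 level, 5.70, was on SPOP F133V replicate 1, the dimmest array, with a median intensity of 109. Without that array the SPOP F133V difference was -0.52 (adjusted p = 0.276). The call was also lost without control vector replicate 1, 2 or 3 (-0.76 in each; adjusted p = 0.0613, 0.0606 and 0.0612) and without wild-type SPOP replicate 1 (-0.66; 0.134), 2 (-0.81; 0.0757) or 3 (-0.80; 0.0829).

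**Figure D4:**
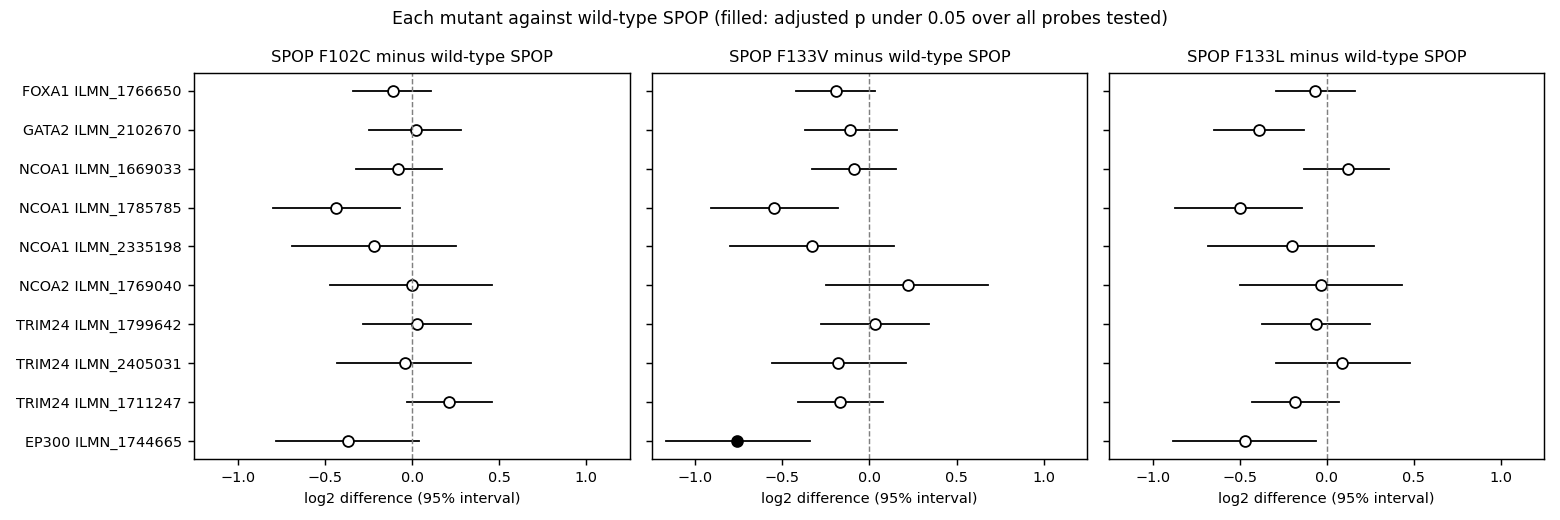
Difference in log2 level (x axis) of each member probe (y axis) between each mutant and wild-type SPOP, with 95% intervals. The 1 filled point, called over all 23133 probes, is EP300 with SPOP F133V at -0.76, and NCOA1 ILMN_1785785 lies at -0.44, -0.55 and -0.50 in the 3 mutants.

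Counting probes whose 2 sets of arrays were fully separated, 4 of 10 were higher with wild-type SPOP than with control vector, where 12% of all probes were higher and 24.2% differed either way. They were GATA2, NCOA1 ILMN_1669033 and ILMN_1785785, and TRIM24 ILMN_1711247. The last one was near background and passed the filter only through the SPOP F102C arrays. In the mutants, 2 of 10, NCOA1 ILMN_1785785 and EP300, were lower than with wild-type SPOP (6.92% of all probes lower, 13.4% either way). NCOA1 ILMN_1669033 was 1 of 10 higher than with control vector (6.05% higher, 12.8% either way).

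Other genes of the same machinery were taken from 6 lists of coregulators written from background knowledge. Of 60 genes 57 had a probe and 52 were tested, with 67 probes. Wild-type SPOP against control vector called 1 that rose and 0 that fell (1.49%, against 3.22% of all probes). The mutants against wild-type SPOP called 1 that rose and 1 that fell (2.99%, against 7.01%), and the mutants against control vector 1 that rose and 2 that fell (4.48%, against 7.54%). The median difference of the 67 probes was 0.02, -0.03 and -0.01 in these comparisons. In the lists of corepressor complexes (13 probes), chromatin regulators (10), TRIM24 relatives (3) and steroid receptor chaperones (6), limma called 0 of 32 probes in each of the 3 comparisons, with 4, 6 and 6 of them at an unadjusted p under 0.05.

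KAT2B (PCAF), an acetyltransferase, rose with wild-type SPOP against control vector, from 8.04, 8.19 and 8.24 to 8.77, 8.58 and 8.65, with no overlap. The difference was 0.51 ± 0.11 (SE; adjusted p = 0.0287). It lost the call without control vector replicate 1 (0.45; 0.116), 2 (0.53; 0.0799) or 3 (0.55; 0.0535) and without wild-type SPOP replicate 1 (0.46; 0.109), 2 (0.55; 0.0611) or 3 (0.52; 0.0873). It also lost the call with equal medians of all probes (0.39; 0.222), the number of detected probes as a covariate (0.42; 0.152) and the replicate block (0.51; 0.0592), and stood at 0.33 with the authors' values (0.00281). The mutants differed from wild-type SPOP at KAT2B by -0.24 ± 0.10 (adjusted p = 0.159).

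NCOA7, a coactivator of nuclear receptors outside the p160 family, fell in the mutants, from 8.01, 8.11 and 8.09 with wild-type SPOP to between 7.55 and 7.72 on the 6 mutant arrays. The difference was -0.44 ± 0.09 (SE; adjusted p = 0.0119), and it was called without 10 of the 12 arrays in turn, the exceptions being wild-type SPOP replicate 2 (-0.42; 0.0563) and 3 (-0.43; 0.0523). The NCOA7 call was also lost with the replicate block (-0.42; 0.0586) and the covariate (-0.48; 0.105). Its size was -0.24 with the authors' values and -0.80 with equal medians of all probes. Against control vector, NCOA7 differed by -0.21 in the mutants (adjusted p = 0.161) and by 0.23 with wild-type SPOP (0.276). CARM1, an arginine methyltransferase that p160 proteins recruit, rose in the mutants against wild-type SPOP by 0.31 ± 0.08 (adjusted p = 0.0439). Its levels went from 8.95, 9.0 and 8.89 to between 9.17 and 9.38. The difference stood at -0.06 (adjusted p = 0.812) with equal array medians of all probes. Against control vector, CARM1 differed by 0.17 in the mutants (adjusted p = 0.254) and by -0.14 with wild-type SPOP (0.517). The CARM1 call remained without SPOP F133V replicate 2 (0.35; 0.0375) and was lost without any other single array, with differences of 0.28 to 0.34 and adjusted p from 0.0538 to 0.152. It was also lost with the covariate (0.23; 0.396), only the groups compared (0.31; 0.0752) and the replicate block (0.29; 0.141).

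The calls between the mutants and control vector fell in the list of pioneer and collaborating factors, 3 of its 11 probes where 7.54% of all probes were called, and were singled out after their values were seen. HOXB13, a homeobox factor of the prostate lineage, rose by 0.53 ± 0.12 (adjusted p = 0.0222), with levels of 8.60, 8.35 and 8.58 with control vector and 8.64 to 9.22 with the mutants. Wild-type SPOP arrays gave 9.06, 8.80 and 9.12, which is 0.48 above control vector (adjusted p = 0.096), and the mutants differed from wild-type SPOP by 0.05 (0.877). HOXB13 is also among the luminal markers. The mutants' difference from control vector was 0.04 (adjusted p = 0.842) with equal array medians of all probes and 0.43 (0.611) with the covariate. NFIA, a nuclear factor I protein, fell by -0.48 ± 0.11 at 1 probe (adjusted p = 0.0207), and its other probe gave -0.29 (0.172). At the called probe NFIA differed by -0.47 between wild-type SPOP and control vector (adjusted p = 0.0723) and by -0.01 between the mutants and wild-type SPOP (0.965). Its difference between the mutants and control vector was -0.15 with the authors' values (0.0153), -0.87 with equal medians of all probes and -0.61 with the covariate (0.351). ONECUT2, a homeobox factor, fell by -0.39 ± 0.11 at 1 of its 3 probes (adjusted p = 0.0478), where the others gave -0.26 (0.613) and -0.35 (0.097). The ONECUT2 call was lost in 10 of 12 other processing settings, with -0.08 for the authors' values (0.161), -0.13 for quantile normalization alone (0.166) and -0.14 for equal medians of detected probes (0.434). The HOXB13 call was lost without control vector replicate 1 (0.57; 0.0555), 2 (0.45; 0.109) or 3 (0.57; 0.0613) or SPOP F102C replicate 1 (0.52; 0.0501). The NFIA call was lost without control vector replicate 1 (-0.46; 0.0803), 2 (-0.45; 0.0894) or 3 (-0.53; 0.0502). The ONECUT2 call was kept without control vector replicate 2 (-0.49; 0.0402) or SPOP F133L replicate 1 (-0.45; 0.0322), and was lost without any other single array, with adjusted p up to 0.187.

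**Figure D5:**
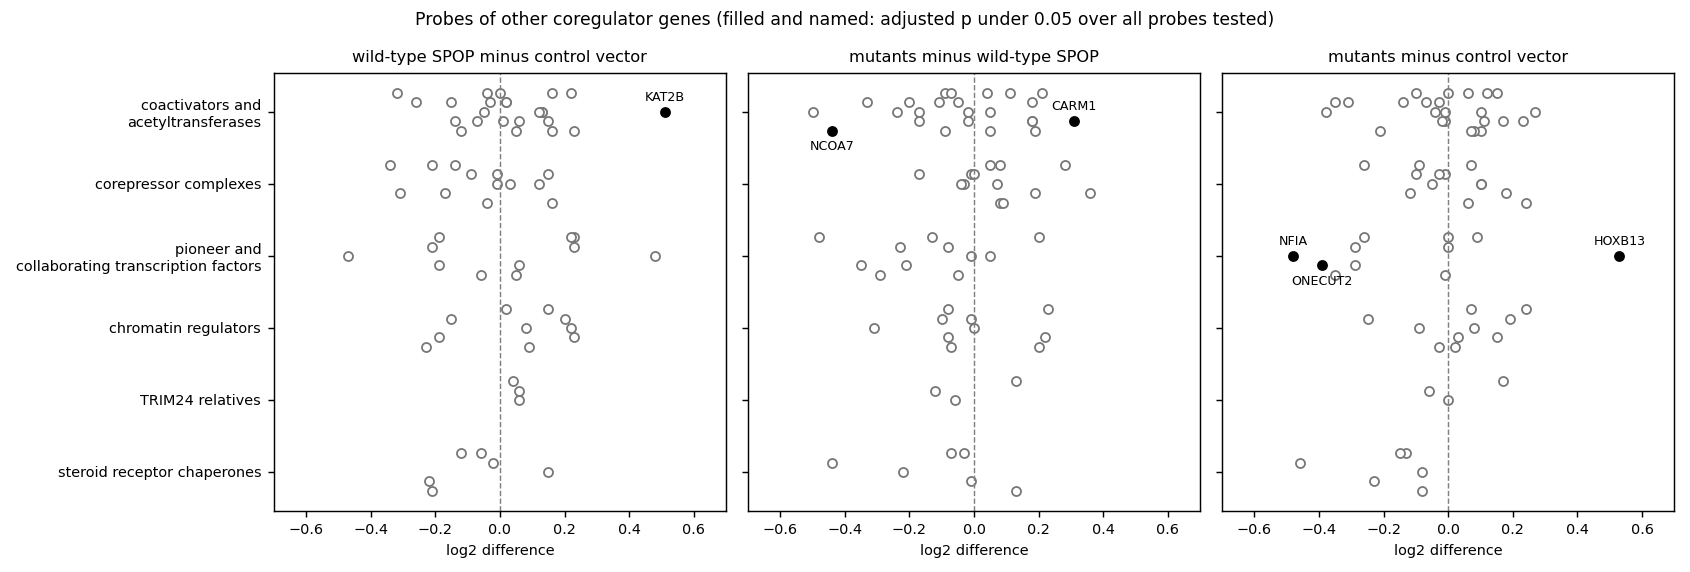
Difference in log2 level (x axis) of the 67 probes of other coregulator genes, by list (y axis), in the 3 main comparisons. Filled points were called over all 23133 probes and carry the gene's name, and they number 1, 2 and 3 from left to right.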

How the data were processed

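RNA of 12 LNCaP-Abl samples was hybridised as biotin-labelled cRNA to Illumina bead arrays. Each array has, per the file headers, 1 linear average intensity and 1 detection p-value for every probe. The authors also deposited processed log2 values, with a median of 7.53 on each array, which were used only as an alternative. The submitters' processing notes name the software lumi, without settings. Samples were grouped by their titles.

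The neqc function (limma 3.58.1, R 4.3.3) subtracted background, estimated from the detection p-values, added an offset of 16, and quantile normalized the arrays to log2 levels. Probes detected (p under 0.05) on at least 2 arrays were kept, 23133 of 47323. A model of 5 group means was fitted to the 12 arrays with lmFit and eBayes (7 residual and 4.85 prior degrees of freedom), the 3 mutants being averaged with equal weight, and p-values were adjusted by Benjamini-Hochberg over all probes kept. Low signal and the small number of arrays limit the precision. The fit was tested on simulated data with independent noise on each array. That simulation left out the differences in intensity and detection between these arrays, so no call here rests on it.

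Probes were named by the platform annotation, in which 30113 probes have 1 symbol, 8 have several and 17202 have none. All 10 member probes matched the RefSeq gene table of GRCh38.p14, and 0 symbols were updated. The receptor's own transcript is not reported here. The members and the gene lists were chosen with earlier results of these data known. Named genes were every member probe, the listed coregulators called in wild-type SPOP against control vector or mutants against wild-type SPOP (at most 4 per list), and the 3 genes closest by Pearson correlation to a member called over the 5 groups. HOXB13, NFIA and ONECUT2, called in the mutants against control vector and not in those 2 comparisons, fall outside that rule and were chosen after their values were seen. Samples with the same replicate number did not deviate together (correlations of -0.05 to 0.05 over 21 pairs), so the numbers were not taken as pairs. Alternatives covered the normalization, the offset, the filter, 1 probe per gene, array weights, an intensity trend, detected probes as a covariate, fewer groups, a replicate block and each array left out.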

Additional observations from a re-analysis of the deposited data

How the results depend on the processing

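The number of member probes called (of 10) was 1 in wild-type SPOP against control vector. Fewer than 10 member probes were tested with the stricter filter (detection p under 0.01 on at least 3 arrays) and with 1 probe per gene. In wild-type SPOP against control vector the number was also 1 in these 2 settings. It was 2 with the authors' processed values, quantile normalization without background correction, an offset of 50 or an intensity trend. It was 0 with equal array medians of all probes, detected probes as a covariate, only the groups compared, or the replicate block. In the mutants against wild-type SPOP it was 1. It was 2 with the authors' values, quantile normalization alone, an offset of 50, the stricter filter, array weights or an intensity trend. It was 4 with equal medians of all probes, and 0 with no filter or the covariate. With equal medians of detected probes (those detected on every array) the 1 call was EP300 (adjusted p = 0.0466), and NCOA1 ILMN_1785785 was not called (0.0937). With 1 probe per gene the 1 call was EP300 (0.0355), and NCOA1 ILMN_1785785 was not tested. In the mutants against control vector the number was 1. It became 5 with equal medians of all probes, 2 with equal medians of detected probes and 0 with the covariate. Those 5 were FOXA1, NCOA2, TRIM24 ILMN_1799642, TRIM24 ILMN_2405031 and EP300, all lower in the mutants. For SPOP F133V against wild-type SPOP it was 1. It became 2 with the authors' values, an offset of 50 or equal medians of detected probes, 7 with equal medians of all probes, and 0 with no filter, array weights, the covariate, only the groups compared or the replicate block. For SPOP F133L it was 0, and 1 with the authors' values, quantile normalization alone, an offset of 50 or an intensity trend, and 3 with equal medians of all probes. Over the 5 groups it was 1. It became 2 with the authors' values or equal medians of detected probes, 3 with quantile normalization alone, an offset of 50 or an intensity trend, 7 with equal medians of all probes, and 0 with the covariate or the replicate block. For SPOP F102C and among the 3 mutants it was 0 in every alternative. Leaving out 1 array gave 0 to 1 in each comparison. With equal medians of all probes, the share of all probes called was 27.5% for the mutants against wild-type SPOP, 45.3% for the mutants against control vector, 42.6% for SPOP F133V, 6.90% for SPOP F133L and 46.7% over the 5 groups. The settings that called 2 member probes called 6.1% to 7.65% of all probes in wild-type SPOP against control vector. They called 8.05% to 13.8% in the mutants against wild-type SPOP, 25.4% in the mutants against control vector and 8.57% to 21.5% for SPOP F133V. Over the 5 groups they called 14.9% to 19.3%, and the settings that called 3 called 15.1% to 17.4%. For SPOP F133L the settings that called 1 called 7.33% to 8.56%. The share of all probes rose in these settings too, so a higher member count is no result about the group. Over all processing alternatives the count of all probes ran from 1 to 9848 for SPOP F133V, from 284 to 1981 for SPOP F133L and from 438 to 10806 over the 5 groups.

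The replicate block, which rests only on shared numbers, moved the count over all probes from 746 to 515, from 1621 to 671 and from 1745 to 964 in the 3 main comparisons. Over the other alternatives those counts ran from 330 to 1769, from 227 to 6359 and from 95 to 10480, lowest with the covariate. Leaving out 1 array gave 364 to 779, 529 to 1696 and 858 to 1864. Equal medians of all probes moved the median difference of all probes to -0.09, -0.22 and -0.31 and the share of calls that were higher from 50.7% to 28.3%, from 47.9% to 3.04% and from 46.3% to 2.22%. Equal medians of detected probes gave medians of 0.03, 0.15 and 0.17 and shares of 53.7%, 81.0% and 83.1%. Both scalings shift all probes of an array by 1 constant, so a difference relative to those medians is the same in both by construction. That relative difference was -0.59 for EP300 and -0.51 for NCOA1 ILMN_1785785 in the mutants against wild-type SPOP. It was 0.40 for NCOA1 ILMN_1669033 in wild-type SPOP against control vector. That NCOA1 ILMN_1669033 call was lost with equal medians of all probes (0.32; adjusted p = 0.359), the covariate (0.43; 0.129), only the groups compared (0.0646) or the block (0.0819). The NCOA1 ILMN_1785785 call was lost with equal medians of detected probes (-0.36; 0.0937), no filter (0.0565) or the covariate (-0.41; 0.337), and the EP300 call with SPOP F133V in the 5 settings named above (0.0587 to 0.472).

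Direction turned in these cases, none past the threshold in the alternative. With equal medians of all probes, FOXA1 stood at -0.10 in wild-type SPOP against control vector. In the mutants against control vector NCOA1 ILMN_1669033 stood at -0.06 and GATA2 at -0.30, and CARM1 at -0.06 in the mutants against wild-type SPOP. With equal medians of detected probes, TRIM24 ILMN_1711247, NCOA1 ILMN_2335198 and TRIM24 ILMN_2405031 stood at 0.32, 0.05 and 0.03 in the mutants against wild-type SPOP, and NCOA2 and NCOA1 ILMN_1785785 at 0.05 and 0.14 in the mutants against control vector. With the covariate, TRIM24 ILMN_2405031 stood at 0.02, 0.10 and 0.12 in the 3 comparisons, and in the mutants against control vector TRIM24 ILMN_1711247 stood at -0.06, FOXA1 at 0.05, NCOA2 at 0.05, NCOA1 ILMN_1785785 at 0.07 and TRIM24 ILMN_1799642 at 0.06. Without 1 array, the mutants against wild-type SPOP ran from -0.07 to 0.04 for NCOA1 ILMN_1669033, from -0.04 to 0.23 for NCOA2 and from -0.16 to 0.08 for TRIM24 ILMN_2405031. NCOA1 ILMN_1785785 ran from -0.24 to 0.05 in the mutants against control vector. The causes were not tested. Probes near background, such as those of NCOA2, NCOA1 ILMN_2335198 and TRIM24 ILMN_1711247, resolve only large differences.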
